A study of Mus musculus with 3 samples.

Results

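The genes described here are 45 germline and meiosis genes, measured in mouse embryonic stem (ES) cells with and without Nr0b1 (also called Dax1), a nuclear receptor gene of the X chromosome. They were chosen by name, as all probes that the array assigns to these 45 of its 35019 different gene names or identifiers. They fall into 15 genes of the synaptonemal complex, the meiotic cohesin and recombination, 16 genes of the piRNA pathway and the germ granules (nuage), 7 genes of germ cell specification and differentiation, and 7 other testis genes. All 45 were on the array, 36 with 1 probe and 9 with several.

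The study compared RNA of 3 groups of male EB5 ES cells, which descend from the E14tg2a line, on 9 1-colour Agilent arrays, 3 for each group. The group named -Tx (Nr0b1 fl-/Y) carried the floxed exon 2 of Nr0b1 and was not treated with 4-hydroxy tamoxifen (Tx). The group named +Tx had been treated for 4 days to delete that exon, and the group named KO/Y was of established ES cells that carried the deletion. According to the study, cells of every group carried constitutively expressed MerCreMer, the recombinase that Tx activates, and Egfp, both brought in by piggyBac vectors.

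Treatment with Tx and loss of Nr0b1 cannot be told apart in the +Tx group, since no cells without a floxed allele were treated on these arrays. The sources used here do not name the clone behind the KO/Y arrays, so that an effect of 1 clone cannot be told apart from that of the deletion. The study describes biological triplicates and culture with or without embryonic fibroblast feeder cells, and which of these cultures gave the RNA is not given in the sources used here. Arrays are numbered by slide and position only. The 3 -Tx arrays and +Tx array 1 shared a slide, and the other +Tx arrays and the 3 KO/Y arrays shared another, so that -Tx and KO/Y arrays never met on a slide.

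Meiosis pairs homologous chromosomes along the synaptonemal complex, a protein ladder built on chromosome axes that hold meiotic cohesin, while programmed breaks are repaired by recombination. The piRNA pathway uses PIWI proteins, Tudor-domain proteins and helicases in germ granules to silence transposons in the male germline. In cells outside the germline most of these genes are kept silent by DNA methylation and by Polycomb and E2F6 complexes, many at promoters rich in CpG that hold an E-box or an E2F-type site.

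The sequence before the start site of these genes is shown first, for 6 genes whose signal differed between groups and whose upstream sequence held a motif searched for. Each is the 250 bases before a RefSeq start site, 5′ to 3′ on the strand of the gene, in build GRCm38.p6. Capitals mark the E-box CACGTG, the E2F-type site GCGGGAA or its reverse complement TTCCCGC, and the nuclear receptor half-site AAGGTCA. The sequences lie at chr9:50561269-50561518 (minus strand) for Tex12, chr3:95559427-95559676 (plus) for Hormad1, chr15:85131958-85132207 (minus) for Smc1b, chr10:88459337-88459586 (plus) for Sycp3, chr6:34920698-34920947 (plus) for Stra8 and chr6:125286082-125286331 (minus) for Tuba3a.
Tex12: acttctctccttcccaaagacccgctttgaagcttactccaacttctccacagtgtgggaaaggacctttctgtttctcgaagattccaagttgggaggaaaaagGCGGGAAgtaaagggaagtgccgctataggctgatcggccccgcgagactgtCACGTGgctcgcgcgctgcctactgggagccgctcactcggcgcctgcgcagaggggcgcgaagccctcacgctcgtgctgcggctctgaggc
Hormad1: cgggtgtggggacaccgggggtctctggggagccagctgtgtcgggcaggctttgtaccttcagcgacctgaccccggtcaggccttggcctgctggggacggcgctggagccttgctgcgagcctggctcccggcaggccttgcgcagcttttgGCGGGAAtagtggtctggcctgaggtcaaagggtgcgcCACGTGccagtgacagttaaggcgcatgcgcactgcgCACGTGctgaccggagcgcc
Smc1b: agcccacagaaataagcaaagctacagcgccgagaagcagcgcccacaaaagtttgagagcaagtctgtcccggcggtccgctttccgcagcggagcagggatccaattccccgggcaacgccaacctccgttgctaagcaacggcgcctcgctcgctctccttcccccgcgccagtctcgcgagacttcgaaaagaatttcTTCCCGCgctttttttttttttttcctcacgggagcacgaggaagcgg
Sycp3: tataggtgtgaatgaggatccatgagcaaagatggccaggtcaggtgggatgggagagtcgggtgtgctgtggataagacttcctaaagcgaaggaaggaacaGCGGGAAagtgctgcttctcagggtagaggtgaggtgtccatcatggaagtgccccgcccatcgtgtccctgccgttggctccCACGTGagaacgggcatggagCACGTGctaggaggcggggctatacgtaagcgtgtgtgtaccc
Stra8: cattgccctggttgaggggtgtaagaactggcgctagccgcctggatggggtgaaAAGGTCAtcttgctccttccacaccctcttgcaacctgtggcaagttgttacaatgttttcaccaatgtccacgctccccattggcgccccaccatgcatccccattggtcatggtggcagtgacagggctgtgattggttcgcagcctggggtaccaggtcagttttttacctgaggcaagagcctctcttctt
Tuba3a: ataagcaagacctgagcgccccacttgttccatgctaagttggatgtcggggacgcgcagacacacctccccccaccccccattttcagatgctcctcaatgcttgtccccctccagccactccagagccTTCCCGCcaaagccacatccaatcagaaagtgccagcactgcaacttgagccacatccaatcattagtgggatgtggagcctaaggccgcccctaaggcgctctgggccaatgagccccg

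The E-box stood before the start of many of these genes, among those called in some comparison and those not called. RefSeq promoters were found for 39 of the 45 genes, and Spo11, Tex11, Tex15, Tdrd6, Piwil2 and Rnf17 had no entry. The E-box was present in 17 of the 39 (43.6%), against 6.86% of all 27025 genes with a promoter. The E2F-type site was present in 9 (23.1%, against 4.38%), and the half-site in 1, Stra8 (2.56%, against 4.70%). All motifs were searched on both strands, and different motifs overlapped in 9 of the 32851 promoters of the table.

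By class, the E-box was present in 6 of 12 synaptonemal, cohesin and recombination genes, 7 of 13 piRNA genes, 4 of 7 other testis genes and 0 of 7 germ cell specification genes. The highest CpG count among a gene's 250-base windows had a median of 16 in the 39 genes and 6 in all genes. The E-box and the E2F-type site each hold a CpG, and the shares of genes with a motif were not matched for CpG count. Of the 10 genes with a promoter that were higher in some comparison below, 4 held the E-box, as did 1 of 3 that were lower and 8 of 18 that were tested and not called. Sycp3, whose signal was lower in KO/Y ES cells, and Hormad1, whose signal was higher, each held 2 E-boxes and 1 E2F-type site. A match in these windows is a description of letters and was not tested as a binding site.

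**Figure D1:**
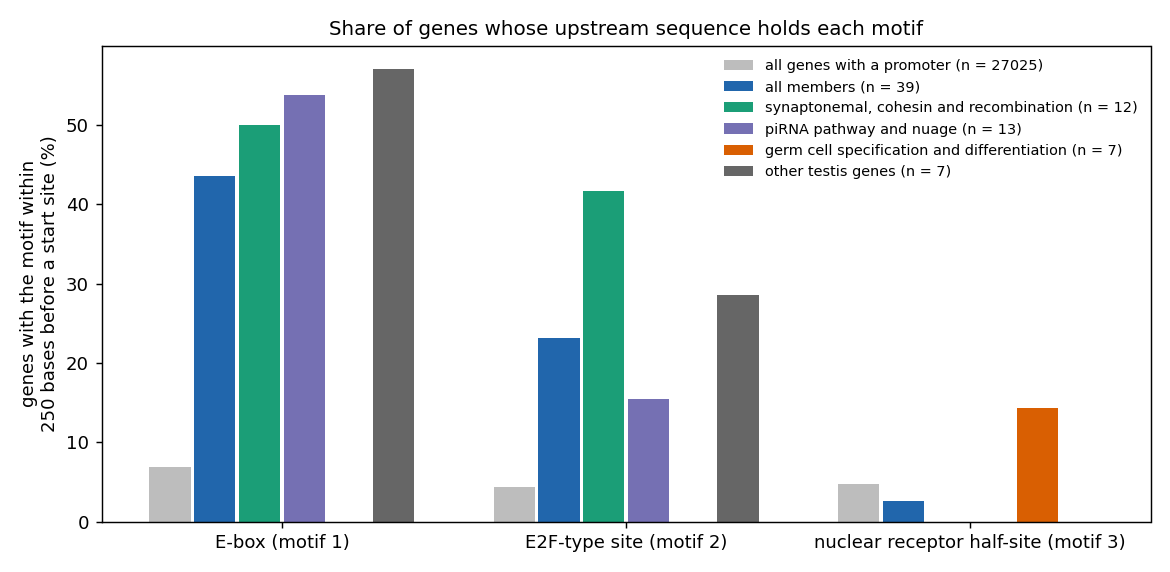
Percent of genes (vertical axis) whose 250 bases before a RefSeq start site hold the E-box (motif 1), the E2F-type site (motif 2) or the nuclear receptor half-site (motif 3), for all genes, all 39 members with a promoter and the 4 classes. The E-box was in 43.6% of the members and 6.86% of all genes, and the germ cell specification genes held it in 0 of 7. Shares were not matched for CpG count.

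Each value below is the log2 processed signal of the brightest probe of a gene minus the 75th percentile of its array. It can be compared between arrays and not between genes. Between 28820 and 32516 of the 55681 probes per array were well above background, no spot was saturated, and precision is limited by 3 arrays per group. Nr0b1 itself had mean signals of 4.10 in -Tx, -2.55 in +Tx and -6.26 in KO/Y ES cells, and its probe was well above background on 0 of the 3 KO/Y arrays. Each of the 12 ES cell markers was well above background on all 9 arrays.

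Of the 45 genes, 35 had a probe well above background on all 3 arrays of some group, and were tested with limma among 22443 genes. A call of higher or lower needs a change past 2-fold and an adjusted p under 0.05. The other 10 were not tested. Asz1, Nanos2, Piwil1, Piwil4, Tdrd1, Tdrd6 and Spo11 were not well above background on any array, and their signals lay between -6.70 and -4.22. Sycp2 was above it on 1 -Tx array, Tdrd9 on 1 +Tx array and Slc25a31, a testis mitochondrial ADP/ATP carrier, on 2 of 3 KO/Y arrays. Slc25a31 gave -4.55, -5.26 and -4.61 in -Tx, -4.88, -5.03 and -4.91 in +Tx, and -3.33, -3.45 and -4.23 in KO/Y ES cells. The KO/Y arrays were the 3 highest.

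More of these genes were called in the comparisons with KO/Y ES cells than after 4 days with Tx. In +Tx over -Tx ES cells 2 of the 35 genes were higher, Tuba3a and Mei1, where 1.75% of all genes tested were higher. None of the 35 was called lower, where 0.762% of all genes were. By adjusted p alone 9 of the 35 were lower, each short of 2-fold, where 14.7% of all genes were. Between KO/Y and +Tx ES cells, 8 were higher in KO/Y (Tuba3a, Tex12, Smc1b, Fkbp6, Stra8, Dazl, Tex101 and Hormad1; background 2.37%) and 3 were lower (Tex14, Rnf17 and Sycp3; background 1.05%). Between KO/Y and -Tx ES cells, 9 were higher in KO/Y, the genes just named and Sycp1 (background 4.72%), and 4 were lower, with Tdrd12 added (background 2.84%). The 3 comparisons share their groups and are not independent of each other.

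Small changes went both ways. At an adjusted p under 0.05 with no limit on the fold, 8 of the 35 were higher and 9 lower in +Tx over -Tx ES cells (background 11.9% and 14.7%). For KO/Y over +Tx ES cells 15 were higher and 10 lower (background 12.1% and 14.1%), and in KO/Y over -Tx ES cells 18 were higher and 10 lower (background 20.5% and 26.4%). Over the 35 genes the median difference on the log2 scale was 0.13, 0.09 and 0.55 in the same order, and that of all genes was -0.06, 0.01 and -0.06.

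Dazl, Mov10l1 and Tex12 passed the filter only through the KO/Y arrays, which favours a call of higher there. With probes well above background on all 9 arrays, 30 of the genes were left. Of these, 6 were higher and 2 lower in KO/Y over +Tx ES cells, where 1.13% and 0.738% of all genes left were, and 6 were higher and 3 lower in KO/Y over -Tx ES cells, against 2.90% and 2.24%.

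**Figure D2:**
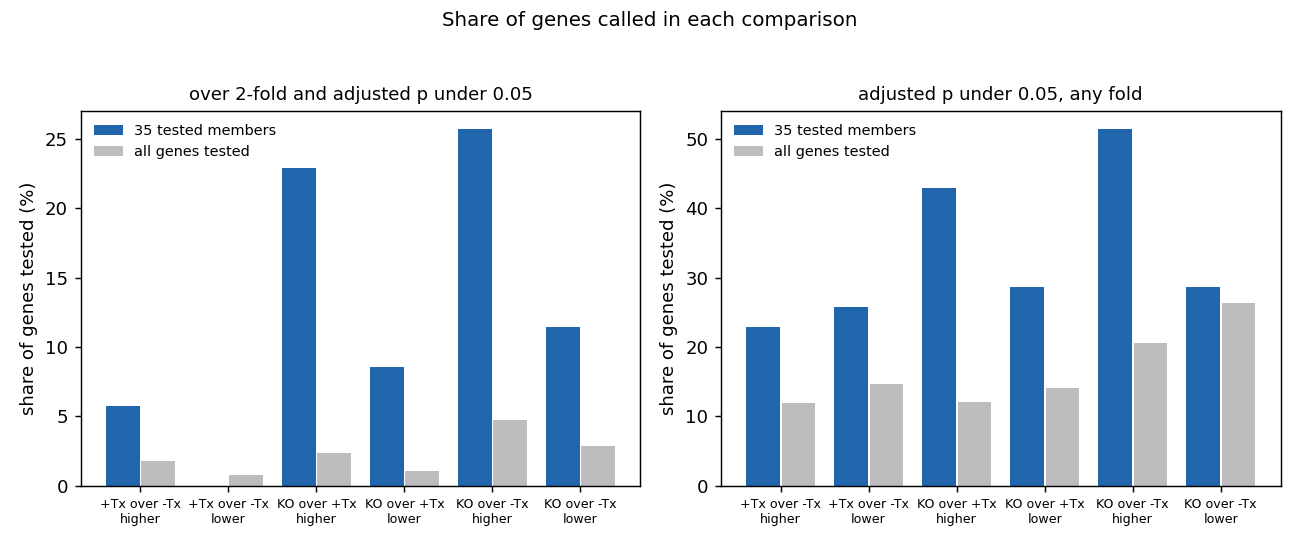
Share of the 35 tested germline and meiosis genes (blue) and of all 22443 genes tested (grey) that were higher or lower in each comparison, as a percent on the vertical axis, with the 2-fold limit on the left and by adjusted p alone on the right. With the 2-fold limit, 9 of the 35 were higher in KO/Y over -Tx ES cells, where 4.72% of all genes were; for genes lower by adjusted p alone in that comparison, the bars are of similar height.

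**Figure D3:**
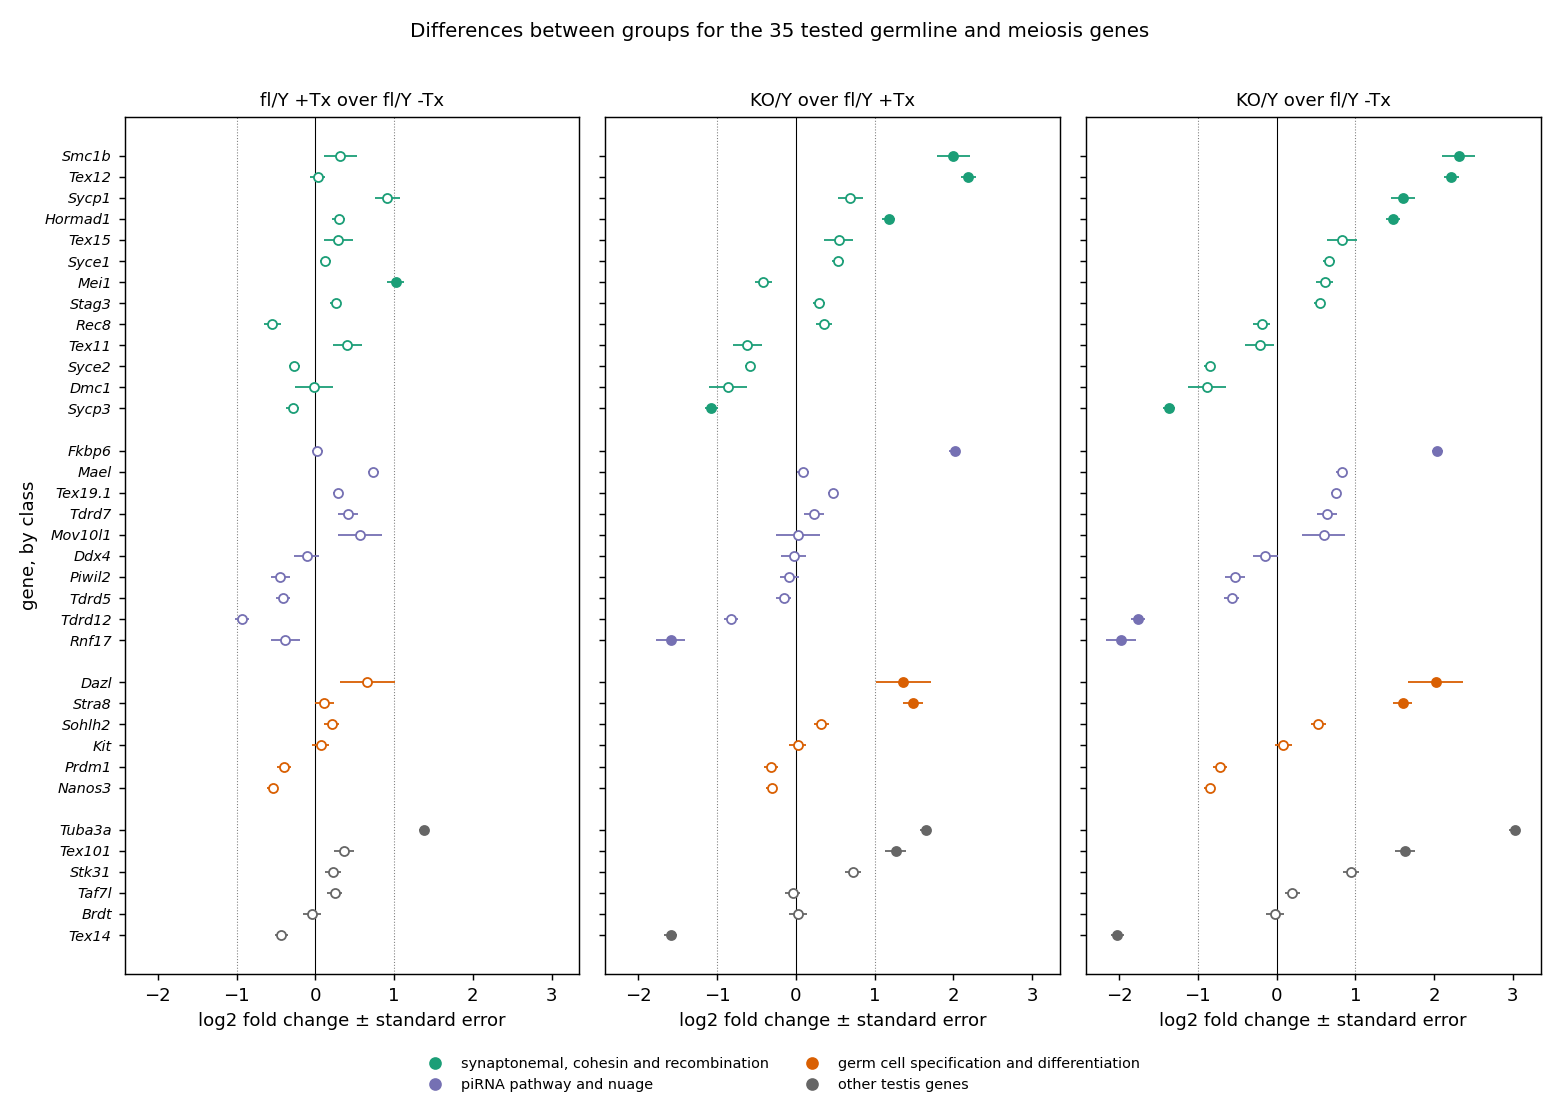
Log2 fold change (horizontal axis, with standard error) of the 35 tested genes in the 3 comparisons, coloured by class and ordered within a class by KO/Y over -Tx. Filled points were called past 2-fold (dotted lines) by limma, and the fold of Tex12 in KO/Y ES cells is measured against a probe not well above background. Filled points are sparse in the left panel (2 genes) and lie on both sides of 0 in the others.

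Among 13 tested genes of the synaptonemal complex, cohesin and recombination, 4 rose and 1 fell in KO/Y over -Tx ES cells (background 4.72% and 2.84%). Smc1b is the meiosis-specific SMC1 subunit of cohesin. Its signals were -1.58, -1.75 and -1.76 in -Tx ES cells, -1.65, -1.68 and -0.81 in +Tx ES cells and 0.53, 0.65 and 0.66 in KO/Y ES cells. The KO/Y arrays lay above all others, and +Tx array 3 lay above the 5 remaining arrays. Smc1b was 4.98-fold higher in KO/Y than in -Tx ES cells (log2 fold change 2.31, standard error 0.209, adjusted p = 4.48e-05) and 3.99-fold higher than in +Tx ES cells (adjusted p = 0.00028). Its probe lies on chromosome 15, from 84895193 to 84895252 in mm9, the build of the array's annotation.

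Tex12, a central element protein of the synaptonemal complex, was well above background in KO/Y ES cells only. Its signals there were -3.81, -3.74 and -3.76, against -5.86, -6.13 and -5.98 in -Tx and -6.13, -5.83 and -5.91 in +Tx ES cells, where the probe was well above background on 0 of 6 arrays. As a floor, the dimmest signal well above background was taken per array. Tex12 was then at least 1.31-fold higher in KO/Y than in -Tx and at least 1.27-fold higher than in +Tx ES cells. The bounds were not tested: limma was run on the measured signals (log2 fold changes 2.22 and 2.19, adjusted p = 6.95e-07 and 4.59e-06). Signals of KO/Y ES cells stood above all others, the -Tx and +Tx arrays overlapped, and the size of the change beyond these bounds is not known.

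Sycp1, the transverse filament of the synaptonemal complex, was higher in +Tx and higher again in KO/Y ES cells. It gave -3.60, -3.38 and -3.97 in -Tx, -2.88, -2.79 and -2.54 in +Tx, and -1.88, -2.10 and -2.16 in KO/Y ES cells, in 3 ranges that did not overlap. The signal was 3.04-fold higher in KO/Y than in -Tx ES cells (log2 fold change 1.60, standard error 0.156, adjusted p = 6.79e-05). The log2 fold changes of 0.91 in +Tx over -Tx (adjusted p = 0.00399) and 0.69 in KO/Y over +Tx ES cells (adjusted p = 0.0126) were each under 2-fold. The third -Tx array was not well above background.

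Hormad1, a HORMA-domain protein of unsynapsed chromosome axes, gave -1.60, -1.67 and -1.58 in -Tx, -1.48, -1.29 and -1.19 in +Tx, and -0.23, -0.09 and -0.11 in KO/Y ES cells. The KO/Y arrays were the highest and the groups did not overlap. Hormad1 was 2.79-fold higher in KO/Y than in -Tx (adjusted p = 3.19e-06) and 2.27-fold higher than in +Tx ES cells (adjusted p = 3.77e-05). Its other probe was well above background on the KO/Y arrays only.

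Sycp3, the axial element protein that with Sycp1 defines the synaptonemal complex, moved the other way. Its signals were 0.98, 0.90 and 0.90 in -Tx, 0.58, 0.55 and 0.78 in +Tx, and -0.51, -0.33 and -0.47 in KO/Y ES cells. No group overlapped another, and the KO/Y arrays were the lowest. The log2 fold change was -1.36 in KO/Y over -Tx (standard error 0.0822, adjusted p = 4.74e-06) and -1.08 in KO/Y over +Tx ES cells (adjusted p = 5.64e-05). A second probe gave -1.48 and -1.20 for the same comparisons.

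Mei1, a gene needed for meiotic double-strand breaks, was the member of this class called after 4 days with Tx. It gave -2.71, -2.97 and -2.93 in -Tx, -1.79, -1.85 and -1.90 in +Tx, and -2.36, -2.04 and -2.37 in KO/Y ES cells, so that the KO/Y arrays lay between the other groups. It was 2.03-fold higher in +Tx than in -Tx ES cells (log2 fold change 1.02, standard error 0.107, adjusted p = 0.000352). The fold is close to the limit, and the call was lost with quantile normalization (log2 fold change 0.99), with normexp background correction (0.53), without -Tx array 2 (0.97), without -Tx array 3 (0.99) and without +Tx array 1 (0.996). In KO/Y over -Tx ES cells the log2 fold change of Mei1 was 0.61 (adjusted p = 0.00164).

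The other 7 tested genes of the class, Stag3, Rec8, Dmc1, Tex11, Tex15, Syce1 and Syce2, stayed under 2-fold. Their log2 fold changes ran from -0.88 to 0.83 in KO/Y over -Tx ES cells. Syce1, Tex15 and Stag3 passed the adjusted p as higher (log2 fold changes 0.67, 0.83 and 0.55), and Syce2 and Dmc1 as lower (-0.85 and -0.88). The probes of Dmc1, a recombinase of meiosis, differed. The probe used was well above background on 2 of 3 KO/Y arrays, and a second gave -0.87 in KO/Y over -Tx ES cells. The remaining probe, the one well above background on all 9 arrays, gave -0.09 (adjusted p = 0.739 over all probes). Syce1 and Syce2 are both central element proteins and lay on opposite sides of 0. Rec8, the meiotic kleisin of cohesin, had -0.55 in +Tx over -Tx (adjusted p = 0.00732) and 0.36 in KO/Y over +Tx ES cells (adjusted p = 0.0401).

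**Figure D4:**
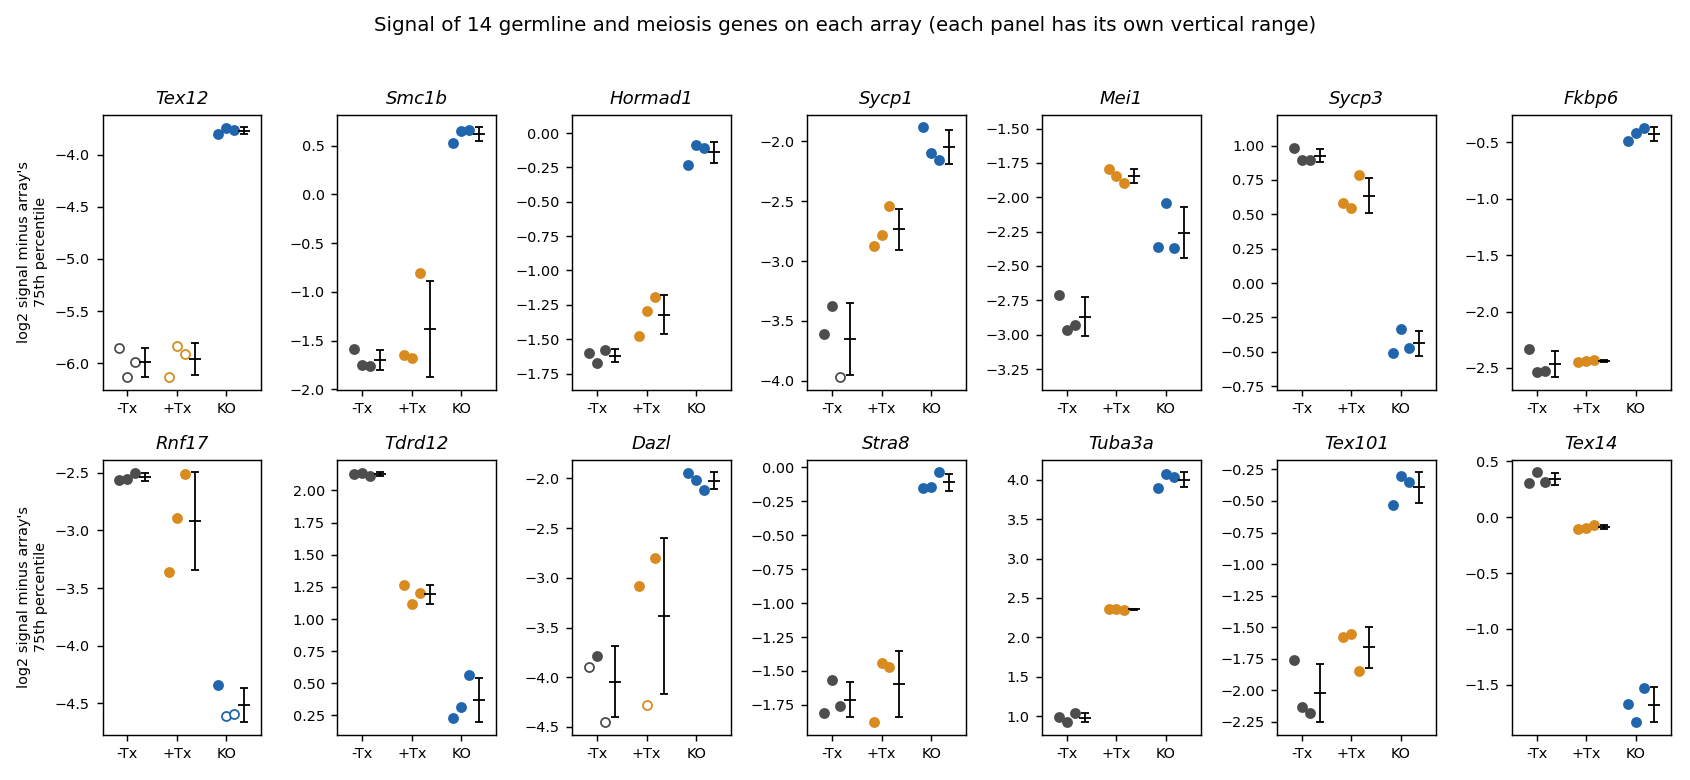
Log2 signal minus the array's 75th percentile (vertical axis) of the 14 genes called in at least 1 comparison, on each of the 9 arrays, by group (horizontal axis). A filled point marks a probe well above background on that array and an open point one that was not, and bars are the mean ± SD of 3 arrays. The KO/Y arrays are the 3 highest for 9 genes and the 3 lowest for Sycp3, Rnf17, Tdrd12 and Tex14.

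Among 10 tested piRNA and nuage genes, 1 rose and 2 fell in KO/Y over -Tx ES cells (background 4.72% and 2.84%), and 1 rose and 1 fell in KO/Y over +Tx ES cells (background 2.37% and 1.05%). Fkbp6, a co-chaperone of the germline needed for piRNA loading and found at the synaptonemal complex, gave -2.33, -2.54 and -2.53 in -Tx, -2.45, -2.44 and -2.43 in +Tx, and -0.49, -0.42 and -0.37 in KO/Y ES cells. The -Tx and +Tx arrays overlapped, and the KO/Y arrays stood above both. Fkbp6 was 4.11-fold higher in KO/Y than in -Tx (log2 fold change 2.04, standard error 0.0721, adjusted p = 1.80e-07) and 4.04-fold higher than in +Tx ES cells (adjusted p = 2.02e-06). Its second probe gave log2 fold changes of 2.22 and 2.04.

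Tdrd12, a Tudor-domain protein with a helicase domain that works in secondary piRNA production, was lower in both steps. Its signals were 2.13, 2.14 and 2.11 in -Tx, 1.26, 1.11 and 1.21 in +Tx, and 0.23, 0.32 and 0.56 in KO/Y ES cells. The groups did not overlap. The log2 fold change was -0.93 in +Tx over -Tx (adjusted p = 0.000226), -0.82 in KO/Y over +Tx (adjusted p = 0.000345) and -1.76 in KO/Y over -Tx ES cells (standard error 0.0901, adjusted p = 1.81e-06), the last alone past 2-fold.

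Rnf17, a Tudor-domain and RING finger protein of male germ cell granules, fell in KO/Y ES cells. It gave -2.56, -2.55 and -2.50 in -Tx, -3.36, -2.89 and -2.51 in +Tx, and -4.34, -4.61 and -4.59 in KO/Y ES cells. The KO/Y arrays were the lowest, and only 1 of them was well above background. The log2 fold change was -1.97 in KO/Y over -Tx (standard error 0.186, adjusted p = 5.56e-05) and -1.59 in KO/Y over +Tx ES cells (adjusted p = 0.000479).

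The other 7 tested piRNA genes, Mael, Mov10l1, Ddx4, Piwil2, Tdrd5, Tdrd7 and Tex19.1, had log2 fold changes between -0.57 and 0.83 in KO/Y over -Tx ES cells. Mael, an HMG-box protein of nuage, was already 0.74 higher in +Tx over -Tx ES cells on the log2 scale (adjusted p = 0.000224), and in KO/Y over +Tx its log2 fold change was 0.09 (adjusted p = 0.405). Piwil2, the PIWI protein of this class with a signal on every array, had -0.53 in KO/Y over -Tx ES cells (adjusted p = 0.00753). Ddx4 (Vasa), a helicase and a general germ cell marker, was well above background on all 9 arrays at -0.45 to 0.19, and its log2 fold change in KO/Y over -Tx ES cells was -0.14 (adjusted p = 0.509 at a standard error of 0.158). Tex19.1, which restrains retrotransposons in germ and ES cells, passed the adjusted p as higher in all 3 comparisons, at 0.29, 0.47 and 0.75.

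Of 6 tested germ cell specification and differentiation genes, Dazl and Stra8 rose in KO/Y ES cells over both other groups (background 4.72% over -Tx and 2.37% over +Tx). Stra8, the retinoic acid-induced gate to meiosis, gave -1.81, -1.57 and -1.76 in -Tx, -1.88, -1.44 and -1.47 in +Tx, and -0.15, -0.14 and -0.04 in KO/Y ES cells. The -Tx and +Tx arrays overlapped. Stra8 was 3.03-fold higher in KO/Y than in -Tx (log2 fold change 1.60, standard error 0.123, adjusted p = 1.91e-05) and 2.80-fold higher than in +Tx ES cells (adjusted p = 8.77e-05).

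Dazl, an RNA-binding protein that licenses germ cells for gametogenesis, lay close to background outside the KO/Y group. It gave -3.90, -3.78 and -4.45 in -Tx, -3.08, -4.28 and -2.80 in +Tx, and -1.95, -2.01 and -2.11 in KO/Y ES cells. The probe was well above background on 1, 2 and 3 arrays of these groups, and the KO/Y arrays stood above all others. Dazl was 4.06-fold higher in KO/Y than in -Tx ES cells (log2 fold change 2.02, standard error 0.348, adjusted p = 0.00149) and 2.57-fold higher than in +Tx ES cells (adjusted p = 0.0209). The call of KO/Y over +Tx was lost in 7 of 16 alternatives: without +Tx array 2 (log2 fold change 0.92), without KO/Y array 1, 2 or 3 (adjusted p = 0.0592, 0.0580 and 0.0517 by limma), on the slide that holds both groups (adjusted p = 0.0616), with no filter on dim probes (adjusted p = 0.0526) and with normexp background correction (log2 fold change 0.53). Without +Tx array 2 the log2 fold change of +Tx over -Tx rose from 0.66 to 1.11 and passed both limits.

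Of the other 4 tested genes of this class, Nanos3 and Prdm1, which act in the earliest primordial germ cells, were lower at each step without reaching 2-fold. Nanos3 had log2 fold changes of -0.54, -0.31 and -0.85 in +Tx over -Tx, KO/Y over +Tx and KO/Y over -Tx ES cells, and Prdm1 had -0.40, -0.32 and -0.72. Sohlh2, a transcription factor of spermatogonia, had 0.53 in KO/Y over -Tx ES cells (adjusted p = 0.00177). Kit, the receptor of germ cells and their precursors, had 0.09 (adjusted p = 0.543).

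Of the other testis genes, Tuba3a, an alpha-tubulin of testis, had the largest log2 fold change of the 35 in KO/Y over -Tx ES cells. Its signals were 0.98, 0.92 and 1.03 in -Tx, 2.36, 2.35 and 2.35 in +Tx, and 3.90, 4.08 and 4.03 in KO/Y ES cells. The 3 groups were apart from each other, with the +Tx arrays between. Tuba3a was 2.60-fold higher in +Tx than in -Tx (log2 fold change 1.38, standard error 0.0657, adjusted p = 2.84e-06), 3.13-fold higher in KO/Y than in +Tx (adjusted p = 2.79e-06) and 8.13-fold higher in KO/Y than in -Tx ES cells (adjusted p = 1.18e-08). The calls of Tuba3a held in all 17, 17 and 16 alternatives run for these comparisons.

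Tuba3a has a close copy, Tuba3b, whose probe was looked up after the values of Tuba3a had been seen. Tuba3b had log2 fold changes of 1.20, 1.83 and 3.03 in the same 3 comparisons, beside 1.38, 1.65 and 3.02 for Tuba3a. How far the probes of both genes bind the RNA of the other was not tested. The probe of Tuba3a lies on chromosome 6, from 125228298 to 125228357 in mm9, and a second probe, overlapping it, gave a log2 fold change of 3.04 in KO/Y over -Tx ES cells.

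Tex101, a surface protein of testicular germ cells, gave -1.76, -2.13 and -2.18 in -Tx, -1.58, -1.56 and -1.85 in +Tx, and -0.53, -0.30 and -0.35 in KO/Y ES cells. The KO/Y arrays lay above the rest, and the -Tx and +Tx arrays overlapped. Tex101 was higher in KO/Y than in -Tx ES cells by 1.63 on the log2 scale (adjusted p = 2.39e-05) and higher than in +Tx ES cells by 1.27 (adjusted p = 0.000262).

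Tex14, a protein of the intercellular bridges that join dividing germ cells, fell. It gave 0.31, 0.40 and 0.32 in -Tx, -0.10, -0.10 and -0.07 in +Tx, and -1.67, -1.84 and -1.53 in KO/Y ES cells, in ranges that did not overlap. The log2 fold change was -0.43 in +Tx over -Tx (adjusted p = 0.00623), -1.59 in KO/Y over +Tx (adjusted p = 8.03e-06) and -2.02 in KO/Y over -Tx ES cells (standard error 0.0819, adjusted p = 4.20e-07). Of the remaining genes, Stk31 had 0.95 in KO/Y over -Tx ES cells (adjusted p = 0.000102), while Taf7l, a testis form of a TFIID subunit, had 0.20 (adjusted p = 0.101) and Brdt, a testis bromodomain protein, -0.02 (adjusted p = 0.929). A second probe of Brdt was well above background on 1 KO/Y array only and was not tested. Its means were -5.68 in -Tx, -5.03 in +Tx and -4.43 in KO/Y ES cells.

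Other genes of the same pathways, listed with earlier results of these arrays known, were counted in the same fit. Of 40 other meiosis genes, 22 were tested. In +Tx over -Tx ES cells Zcwpw1, a histone reader of recombination hotspots, was 2.35-fold higher (adjusted p = 0.000194). Hormad2 was called lower (adjusted p = 0.0296), by 1.02-fold against the floor. Its probe was well above background on 1 -Tx array, so that this is no firm bound. In KO/Y over +Tx ES cells 4 of the 22 were called higher (background 2.37%) and none lower (background 1.05%). By adjusted p alone 4 were lower, where 14.1% of all genes were.

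Of the 4 genes called higher, Rec114, a partner of the break-forming machinery, was 6.71-fold higher in KO/Y than in +Tx (adjusted p = 2.22e-06) and 8.73-fold higher than in -Tx ES cells (adjusted p = 1.38e-07). Terb2 and Majin, which tie meiotic telomeres to the nuclear envelope, were also higher. Terb2 was 5.17-fold higher in KO/Y than in +Tx ES cells (adjusted p = 0.0069) and at least 5.12-fold higher than in -Tx ES cells, where its probe was well above background on 0 of 3 arrays. The probe of Terb2 thus did not pass the filter through the -Tx arrays, which favours a call of higher over them. Majin was 2.07-fold and 3.16-fold higher in KO/Y than in +Tx and -Tx ES cells (adjusted p = 0.0017 and 5.56e-05). Hormad2 was at least 1.31-fold higher in KO/Y than in +Tx ES cells (adjusted p = 0.00786). The probe of Hormad2 passed the filter only through the KO/Y arrays, which favours a call of higher there.

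Of 17 other piRNA pathway genes, 12 were tested and Gpat2, a mitochondrial acyltransferase needed for primary piRNAs, was the gene called. In KO/Y ES cells 1 of the 12 was thus higher over +Tx (background 2.37%) and over -Tx (background 4.72%). None was called lower (background 1.05% and 2.84%). Gpat2 was 3.98-fold higher in KO/Y than in +Tx (adjusted p = 7.36e-06) and 5.15-fold higher than in -Tx ES cells (adjusted p = 4.98e-07). By adjusted p alone 3 of the 12 were higher and 6 lower in KO/Y over -Tx ES cells, where 20.5% and 26.4% of all genes were. Over the 12 genes the median was a log2 fold change of -0.34 in KO/Y over -Tx ES cells.

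Of 22 other germ cell specification genes, 18 were tested. Dppa3 (Stella) was 3.12-fold lower in +Tx than in -Tx ES cells (adjusted p = 6.85e-06) and 2.23-fold higher in KO/Y than in +Tx ES cells (adjusted p = 5.80e-05). Tfap2c, which acts with Prdm1 in primordial germ cells, was 3.90-fold lower in +Tx (adjusted p = 2.93e-07) and 2.61-fold lower in KO/Y than in -Tx ES cells (adjusted p = 1.07e-06). In KO/Y over -Tx ES cells 3 of the 18 were higher (background 4.72%), Gfra1, at least 1.61-fold (adjusted p = 0.00186), Dppa2 (2.44-fold) and Sohlh1 (2.22-fold), and 3 were lower (background 2.84%), Tfap2c, Ifitm1 (2.58-fold) and Dnd1 (2.53-fold). Against the floor, Gfra1 was 1.21-fold higher in +Tx than in -Tx ES cells, with 1 +Tx array well above background. The +Tx mean holds arrays not well above background, so that this is no firm bound. The probe of Gfra1 passed the filter only through the KO/Y arrays, which favours a call of higher there.

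Genes of later germ cells were mostly below the filter. Of 30 spermatid genes 11 were tested, and of 11 oocyte genes 3. None of either list was called in any comparison, where between 0.762% and 4.72% of all genes were called in each direction. By adjusted p alone, 3 spermatid genes were higher and 3 lower in KO/Y over -Tx ES cells, where 20.5% and 26.4% of all genes were.

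The repressors of germline genes, 37 Polycomb, E2F6, DNA methylation and histone methylation genes, were all tested. None was called in +Tx over -Tx ES cells, where 1.75% of all genes were called higher and 0.762% lower. By adjusted p alone 3 were higher and 4 lower there, where 11.9% and 14.7% of all genes were. In KO/Y over +Tx ES cells 1 of the 37 was called higher (background 2.37%) and 0 lower (background 1.05%). In KO/Y over -Tx ES cells 1 was called higher (background 4.72%) and 1 lower (background 2.84%). Zfp809, a zinc finger repressor of retroviral elements, was 2.11-fold higher in KO/Y than in +Tx (adjusted p = 0.000472) and 3.23-fold higher than in -Tx ES cells (adjusted p = 1.58e-05). Tfdp1, a dimer partner of E2F proteins, was 2.55-fold lower in KO/Y than in -Tx ES cells (adjusted p = 6.90e-06). By adjusted p alone, 15 of the 37 were lower and 2 higher in KO/Y over +Tx ES cells, where 14.1% and 12.1% of all genes were. In KO/Y over -Tx ES cells 21 were lower and 6 higher, where 26.4% and 20.5% of all genes were.

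Markers of other cell types differed between the same groups, and their part in the results above was not tested. The summed signal of 11 tested 2-cell markers, on a log2 scale with the 75th percentile of the array at 0, was 4.60 to 4.66 in -Tx, 7.19 to 7.35 in +Tx and 7.84 to 8.03 in KO/Y ES cells. That of the 12 primitive endoderm markers was 3.23 to 3.27, 3.67 to 3.92 and 5.35 to 5.94, and all 12 were well above background on each KO/Y array, against 10 or 11 on each -Tx array and 7 to 10 on each +Tx array. That of the 18 fibroblast markers was 9.22 to 9.30, 9.54 to 9.61 and 9.73 to 9.79, with all 18 well above background on every array.

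The summed signal of the 7 germ cell defining markers (Dazl, Ddx4, Kit, Nanos3, Prdm1, Stra8 and Sycp3) was 3.75 to 3.78 in -Tx, 3.36 to 3.45 in +Tx and 3.19 to 3.28 in KO/Y ES cells. Dazl and Stra8, which were highest in KO/Y ES cells, are 2 of the 7. The sum is taken on the linear scale, where the brightest probe weighs most. That probe is of Nanos3, with means of 2.89 in -Tx, 2.35 in +Tx and 2.04 in KO/Y ES cells. In KO/Y over -Tx ES cells 2 of the 7 were called higher (background 4.72%) and 1, Sycp3, lower (background 2.84%). ES cell markers summed to 9.59 to 9.66, 9.52 to 9.60 and 9.28 to 9.53. Of 8 testis somatic markers 5 were tested, at sums of 6.05 to 6.22, 5.47 to 7.08 and 5.58 to 6.43. In RNA of whole cultures, more cells that express a gene and more RNA per cell cannot be told apart.

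**Figure D5:**
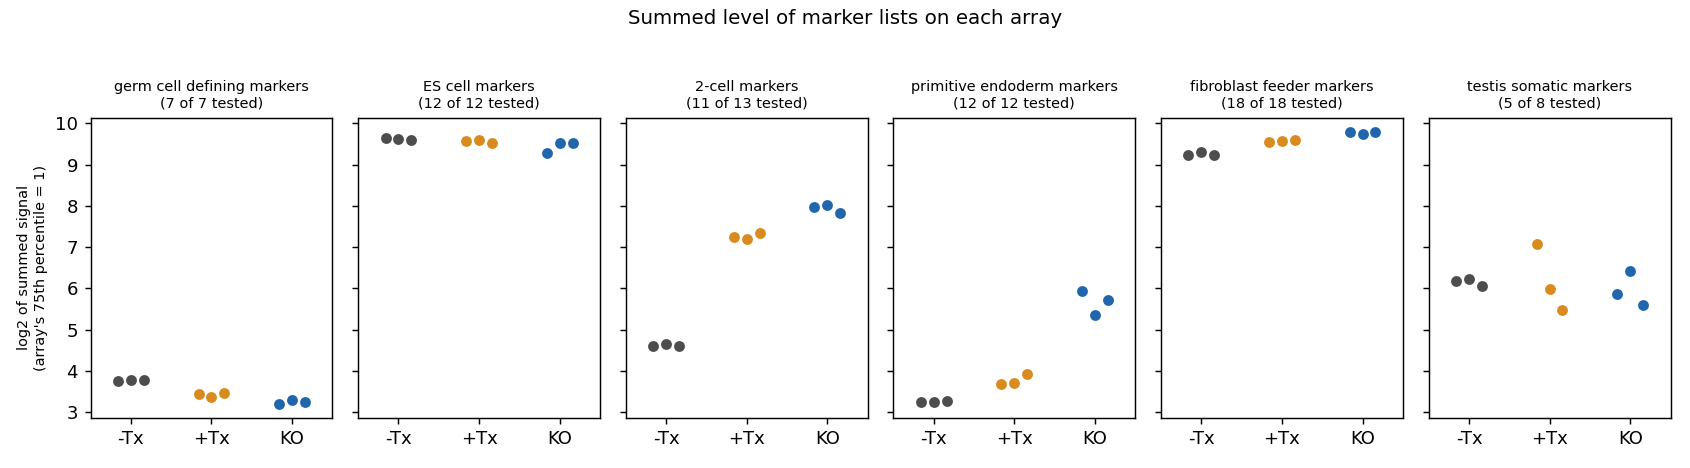
Log2 of the summed signal of each marker list (vertical axis, with the array's 75th percentile at 0 on the log2 scale) on each of the 9 arrays, by group (horizontal axis). Points are arrays. The 2-cell sum is higher in +Tx and KO/Y than in -Tx ES cells, the primitive endoderm sum is highest in KO/Y ES cells, and the germ cell sum is lowest there. In the germ cell sum the brightest probe, of Nanos3, weighs most.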

How the data were processed

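The members and gene lists were chosen with earlier results of these data known. RNA of 9 cultures was labelled with Cy3 and hybridised to SurePrint G3 mouse arrays. Per the file headers, the intensity values come from Agilent Feature Extraction 10.7.3.1, run by the authors, as processed signals on a linear scale after background subtraction, with a flag for spots well above background. The authors also deposited a summary of the series with a single column of signal for each group, which was used as an alternative chosen after seeing the data. Its scale is linear with medians of 0.103, 0.102 and 0.104 over all spots, the columns correlate with the mean of the 3 arrays of their group, and how it was centred is not given in the sources used here.

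Here log2 intensities minus the 75th percentile of each array were used in R 4.3.3 with the package data.table, version 1.17.8. Outlier spots (117 to 178 per array) were left out, spots of a probe averaged, probes kept if well above background on all 3 arrays of some group, and the brightest probe taken per gene. Probes were named through RefSeq accessions where these matched, and members by the array's own names. The 22443 genes were fitted with limma 3.58.1 (lmFit and eBayes) over all 9 arrays in 3 comparisons with Benjamini-Hochberg adjustment, and called past 2-fold with an adjusted p under 0.05, limits that the study names. Where a probe was well above background on no array of a group, folds are bounds, with the dimmest signal well above background as the floor of each array, or the probe's own where higher. The other group enters as measured, so that the bound is not firm where some of its arrays are not well above background. Any adjusted p beside such a fold is of the measured signals and not of the bound.

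Arrays were grouped by the labels. By the rule for named genes, members called are given on all 9 arrays, and of each pathway list up to 3 called genes per comparison, by size of the change. Other genes given values were chosen after these were seen. Promoters are those of RefSeq on GRCm38.p6, and probe positions are on mm9. Alternatives changed the background correction, the scaling, the filter, the slide, the variance, the threshold, the probe, outlier spots and the arrays used. The fit was also run on simulated data with independent normal noise and known changes, and read for +Tx over -Tx only. Those data had no slide effect and no background floor, so that the run does not test the calls above.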

Additional observations from a re-analysis of the deposited data

How the results depend on the processing

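With normexp background correction 1 gene was higher in +Tx over -Tx ES cells, and 4 were higher and 1 lower in KO/Y over +Tx ES cells. With a test against a fold of 2 these counts were 1, 3 and 1 (and 7 higher and 4 lower in KO/Y over -Tx ES cells), and with quantile normalization 1 was higher in +Tx over -Tx ES cells. Leaving out each array, that count ran from 1 (without -Tx array 3 or +Tx array 1, where Mei1 was lost) to 3 (without +Tx array 2, where Dazl was added). Without the limit on the fold, 8 were higher and 9 lower in +Tx over -Tx, 15 and 10 in KO/Y over +Tx, and 18 and 10 in KO/Y over -Tx ES cells. Counts in the other alternatives were within 1.5 times those given above. Leaving aside the test against a fold of 2, for which calls were only counted, 401 of 422 alternative fits of the 26 called differences kept the call. Besides Dazl and Mei1, the losses among these were all with normexp, which shrinks dim probes by an added offset of 50. With it the log2 fold change of Tex12 in KO/Y was 0.47 over +Tx and 0.36 over -Tx. Dazl, Rnf17, Sycp1 and Tex12 were not tested under the filter that needs a signal well above background on every array. Their calls cannot be made there, and the 422 fits leave these cases out.

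Differences near 0 changed sign in +Tx over -Tx ES cells, and none of them was called. Fkbp6 was at -0.0528 with normexp and -0.0069 with quantile normalization, and leaving out each array ran from -0.0104 (without -Tx array 2) to 0.0929 (without -Tx array 1), with -0.00762 without -Tx array 3. Tex12 was at -0.107 with normexp, -0.0583 with quantile normalization and -0.142 with slide as a block or within slide 1, and leaving out each array ran from -0.0410 (without -Tx array 2) to 0.117 (without +Tx array 1), with -0.0328 without +Tx array 2. Stra8 was at -0.168 with slide as a block or within slide 1. The cause was not tested. Slide as a block changed no count of genes called, and in that fit the slide term rests on +Tx array 1 against the other +Tx arrays. No paired analysis was possible because no label or file ties an array to a replicate number.

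Depth is limited by signal over background: 16 of the 45 genes were not well above background on every array with the probe used, and the folds of Tex12, Dazl, Rnf17, Sycp1, Dmc1 and Mov10l1 rest on such arrays.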
